A study of Mus musculus with 4 samples.

Results

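Acute phase plasma protein genes were followed across 4 liver arrays of a mouse genotype study: lipocalin 2 (Lcn2), the serum amyloids Saa1, Saa2 and Saa3, the orosomucoids Orm1 and Orm2, the inter-alpha-trypsin inhibitor chain Itih4, haptoglobin (Hp), hemopexin (Hpx) and serum amyloid P (Apcs). A probe set, the group of short probes that measures a transcript on an Affymetrix array, was taken where the platform annotation assigned it to a single one of these 10 genes. This gave 12 probe sets of 9 genes among 12422 probe sets that were not manufacturer controls. No probe set was assigned to Saa1 alone, so Saa1 was not analysed here. These genes were chosen from their signals, with knowledge of how they differed between null and control liver and between the 2 null arrays, so their values are given as a description without a test.

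The study hybridised liver RNA to MG_U74Av2 arrays, with 2 arrays of hepatic reductase null mice (null 7 and null 8) and 2 of control mice, which the titles mark as WT (control 7 and control 8). No treatment is named for either group, and the sources used here give no strain, sex, age or allele. In the mouse line known as the hepatic reductase null, NADPH-cytochrome P450 oxidoreductase (Por), the electron donor of microsomal P450 enzymes, is deleted in hepatocytes by Cre recombinase under the albumin promoter, so that the other cells of the liver keep the gene. No probe set was assigned to Por, so the labels were not checked against it. Per the labels RNA of 3 animals of a genotype was pooled for each experiment, and the experiment was done 2 times with results described as the same. The control titles name a mouse, so an array may hold a pool or an animal, and its spread may be in part technical. The labels give no batch.

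Acute phase proteins are made mainly by hepatocytes and secreted into plasma when inflammation or injury releases interleukin 6, interleukin 1 and tumour necrosis factor. Interleukin 6 acts through the transcription factor STAT3, the other two through NF-kB, and C/EBP factors bind the promoters of many of these genes. Serum amyloid A1 and A2 and lipocalin 2 are among the most inducible products in mouse liver, orosomucoid and haptoglobin are induced more moderately, and albumin and transthyretin are known as negative acute phase proteins.

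Promoter sequences were set beside the values, because members that were high on the same array could be compared for shared letters. The RefSeq table (GRCm38.p6) held 8 of the 10 genes, from 250 bases before to 50 after the start. The promoters of Lcn2 (chr2:32387690-32387989, minus strand), Saa2 (chr7:46751583-46751882, plus strand) and Orm2 (chr4:63362199-63362498, plus strand) are shown because these genes differed most between the null arrays. Those of Saa3 (chr7:46715627-46715926, minus strand) and Itih4 (chr14:30886226-30886525, plus strand) are shown because both were lower on null 8 than on null 7. Each is given 5′ to 3′ along its gene, and capitals mark the C/EBP letters TTNNGCAA on either strand.
Lcn2: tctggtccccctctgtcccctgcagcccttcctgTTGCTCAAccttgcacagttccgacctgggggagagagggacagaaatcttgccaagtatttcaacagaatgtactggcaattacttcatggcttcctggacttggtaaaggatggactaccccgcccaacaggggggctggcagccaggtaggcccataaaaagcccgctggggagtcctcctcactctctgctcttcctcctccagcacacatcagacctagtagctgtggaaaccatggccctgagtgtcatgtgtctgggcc
Saa2: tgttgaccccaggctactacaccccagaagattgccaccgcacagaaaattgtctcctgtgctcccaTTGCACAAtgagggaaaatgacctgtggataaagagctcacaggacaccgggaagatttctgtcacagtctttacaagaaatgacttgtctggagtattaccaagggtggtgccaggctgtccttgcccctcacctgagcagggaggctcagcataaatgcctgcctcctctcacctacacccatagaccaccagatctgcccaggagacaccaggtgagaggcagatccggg
Orm2: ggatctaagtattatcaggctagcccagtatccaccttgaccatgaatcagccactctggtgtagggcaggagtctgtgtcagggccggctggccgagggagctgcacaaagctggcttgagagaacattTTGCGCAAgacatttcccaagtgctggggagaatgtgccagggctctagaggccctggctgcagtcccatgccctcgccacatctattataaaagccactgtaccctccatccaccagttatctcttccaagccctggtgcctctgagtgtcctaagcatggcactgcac
Saa3: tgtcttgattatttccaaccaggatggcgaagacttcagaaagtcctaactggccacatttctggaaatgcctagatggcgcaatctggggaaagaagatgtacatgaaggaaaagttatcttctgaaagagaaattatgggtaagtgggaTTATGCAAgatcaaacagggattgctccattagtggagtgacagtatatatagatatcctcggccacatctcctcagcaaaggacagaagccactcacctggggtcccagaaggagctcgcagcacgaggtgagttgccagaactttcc
Itih4: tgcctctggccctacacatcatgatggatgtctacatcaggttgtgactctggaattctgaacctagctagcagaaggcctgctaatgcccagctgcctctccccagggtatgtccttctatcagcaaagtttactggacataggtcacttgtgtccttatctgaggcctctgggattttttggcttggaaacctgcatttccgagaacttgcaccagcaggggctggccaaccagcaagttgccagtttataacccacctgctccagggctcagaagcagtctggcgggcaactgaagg

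The letters TTNNGCAA, searched on both strands, occurred in 6 of the 8 promoters (Lcn2, Saa1, Saa2, Saa3, Orm2 and Hpx) and in 10.8% of all 32851 promoters of the table. They began 216 bases upstream of the start in Lcn2, 183 in Saa2, 120 in Orm2 and 99 in Saa3, and did not occur in the windows of Itih4 or Apcs. The Saa1 and Saa2 promoters were 95.35% identical over 301 aligned positions and are not separate examples, while Saa2 and Saa3 were 50.15% identical over 327. The NF-kB letters GGNNTTNCC, on both strands, were in 1 of the 8 windows (Saa3, apart from its C/EBP letters) and in 16% of all. These letters are a shortened form, adopted after a longer form of the motif had been searched and had matched no member's window, so the Saa3 match came only with the looser letters. The STAT letters TTCNNNGAA, on both strands, were in 2 (Itih4 and Apcs) and in 8.3% of all. The letters CTGGGAA, an element of interleukin 6 responsive genes searched on both strands, were in 1 (Apcs) and in 11.1% of all. The letters TATAAA on the sense strand were in 1 (Orm2) and in 8.32% of all. A match of letters is not a measured binding site, and the C/EBP letters occurred both in genes high on null 8 and in Saa3, which was not.

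The deposited signal is a scaled brightness on a linear scale, and it compares arrays for a probe set but not probe sets with each other. Differences are given on the log2 scale after raising signals below 7.1 to that floor. The error of a null minus control difference is the standard error (SE) of a limma fit over the 7241 probe sets bright enough to test. All 12 probe sets passed that filter. All 13 measured hepatocyte markers were bright enough to test, but unequal, from 77.0 for Hnf4a to 9809 for albumin (Alb) on null 7. Their summed signal was 53017 and 51123 on null 7 and null 8, against 57491 and 56094 on control 7 and control 8. The brightest markers carry most of this sum. Of these 13 markers 9 were lower in null liver without overlap and 0 higher, against 43.8% of all tested probe sets without overlap, and 0 passed in limma (6 lower at an unadjusted p under 0.05). Of all 7241 tested probe sets 914 had an unadjusted p under 0.05 in limma, and 0.387% had an adjusted p under 0.05. These are the shares to set beside every such count below. Null 7 stood apart by markers of the exocrine pancreas. The summed signal of 12 acinar markers was 3357 on null 7 and 356.4 on null 8, against 308.3 on control 7 and 474.1 on control 8. For this reason the members are given for each null array as well as for the pair. In whole liver RNA fewer cells of a type and less RNA per cell cannot be told apart.

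By the brightest probe set of each gene, null liver had more Lcn2 and Orm2 signal and less Itih4 signal on both arrays than either control. A second, dim Lcn2 probe set had overlapping groups. Lcn2 and Orm2, with Saa2, were also more than 2-fold higher on null 8 than on null 7. Lcn2 was 12.3-fold higher in null than in control liver (5.41-fold for null 7 and 28.0-fold for null 8), Orm2 was 3.06-fold higher, and Itih4 stood at 0.667 of its control level. Hp and Hpx were higher by small amounts on both null arrays, whereas Saa2, Saa3, Orm1 and Apcs had overlapping groups.

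**Figure D1:**
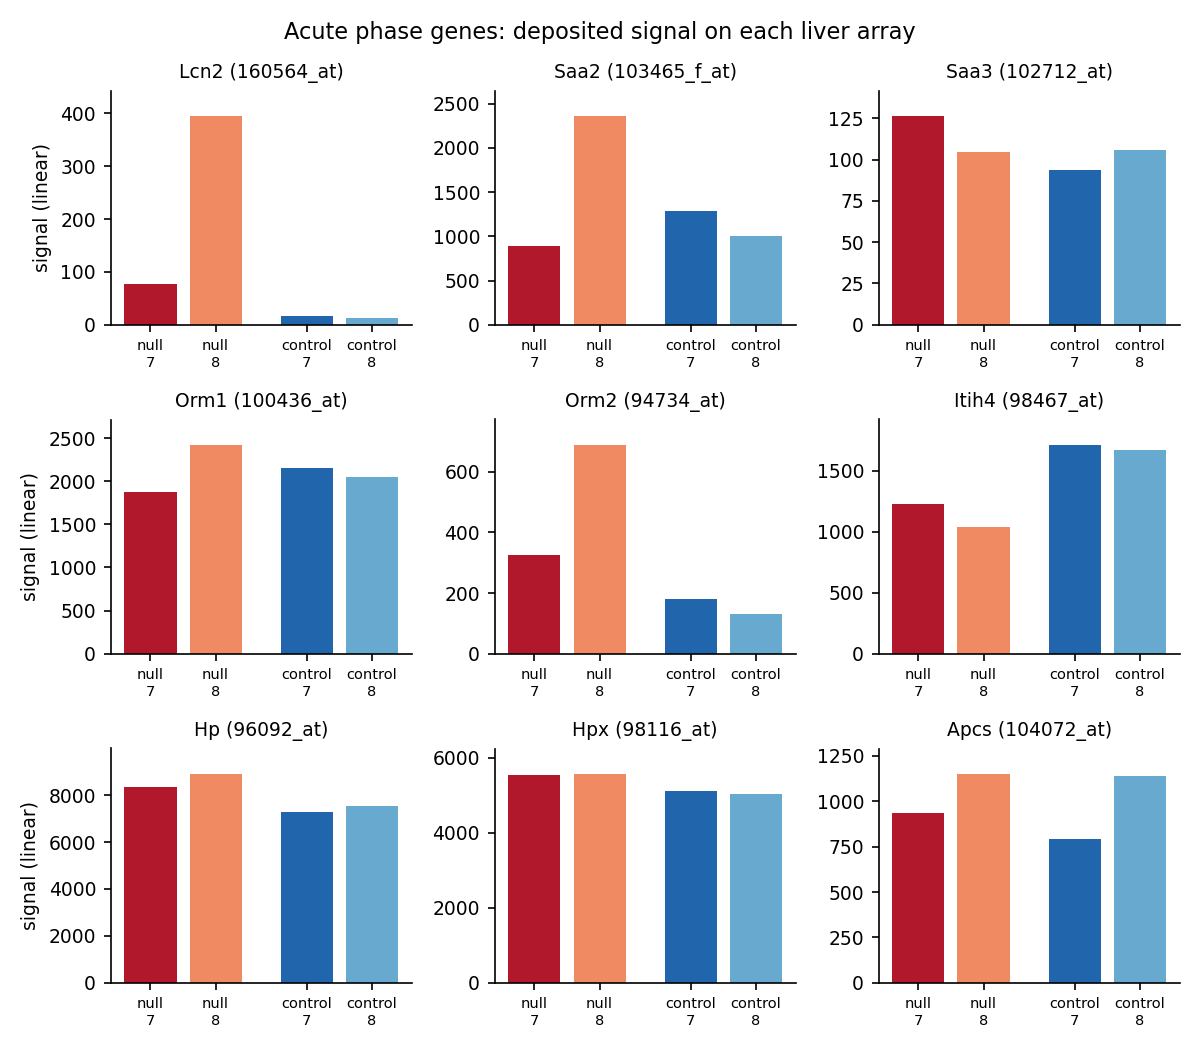
Deposited signal (linear axis from 0, a panel per gene with its own scale) of the brightest probe set of each of the 9 genes on the 2 null and 2 control arrays, with a bar per array. Lcn2 reached 395.6 on null 8 and 76.4 on null 7 against 12.6 and 15.8 on the controls, and Itih4 lay at 1227 and 1040 on the null arrays against 1717 and 1669.

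Lipocalin 2 is a secreted protein that binds bacterial siderophores and so withholds iron, and it is made by hepatocytes and by neutrophils. The signal of its brightest probe set (160564_at) was 395.6 on null 8 and 76.4 on null 7, against 12.6 on control 8 and 15.8 on control 7. Both null arrays lay above both controls, and null 8 lay far above null 7. The group means were 236.0 ± 226 in null liver and 14.2 ± 2.26 in control liver (SD, n = 2 each), and the log2 change was 3.62 ± 0.68 (SE). Set against the mean of the controls, null 7 was 5.41-fold and null 8 28.0-fold higher. The control signals lay under 16.8, the signal that bounds the filter on dim probe sets, so the size of this fold rests on dim values. With a floor at 27.1, the median of all signals, the log2 change was 2.68.

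A second Lcn2 probe set (161684_r_at), of a kind made under relaxed design rules, was dim. It gave 37.2 on null 8 and 15.1 on null 7, against 17.5 on control 8 and 12.4 on control 7. Null 7 lay between the controls here and null 8 above all, and the log2 change was 0.69 ± 0.59 (SE). Both probe sets of Lcn2 were thus highest on null 8, and they differed on whether null 7 exceeded the controls.

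Serum amyloid A2, a lipoprotein-borne protein whose plasma level climbs steeply in inflammation, was high on a single null array. Its probe set 103465_f_at gave 2364 on null 8 and 892.3 on null 7, against 1005 on control 8 and 1289 on control 7. Null 8 lay above both controls and null 7 below both, so the groups overlapped. The log2 change was 0.35 ± 0.40 (SE), made of 1.05 for null 8 and -0.35 for null 7 against the mean of the controls. Without null 8 the direction therefore turned. The ending of this probe set's name marks probes that can bind several members of a gene family, so a share of Saa1 or other amyloid transcripts in this signal was not tested.

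The other Saa2 probe set (100333_at) gave 246.3 on null 8 and 176.0 on null 7, against 163.3 on control 8 and 162.0 on control 7. Its null arrays lay above both controls, with null 8 again the higher, and the log2 change was 0.36 ± 0.19 (SE). The 2 probe sets had nearly equal mean changes but disagreed on the side of the controls on which null 7 lay.

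Serum amyloid A3, the family member made also by macrophages and fat cells, did not share this pattern. Saa3 (102712_at) gave 104.7 on null 8 and 126.6 on null 7, against 105.8 on control 8 and 93.9 on control 7. Null 8 lay between the controls and null 7 above them, with a log2 change of 0.21 ± 0.18 (SE).

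The orosomucoids are acidic glycoproteins that carry basic drugs in plasma, and the genes are neighbours that resemble each other. Orm2 (94734_at) gave 689.1 on null 8 and 324.5 on null 7, against 131.5 on control 8 and 181.2 on control 7. Both null arrays exceeded both controls. The group means were 506.8 ± 258 in null liver and 156 ± 35.1 in control liver (SD, n = 2 each), a log2 change of 1.62 ± 0.34 (SE), with null 7 2.10-fold and null 8 4.46-fold above the mean of the controls.

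Orm1 (100436_at) gave 2424 on null 8 and 1869 on null 7, against 2045 on control 8 and 2156 on control 7. Null 8 lay above and null 7 below both controls, and the log2 change was 0.02 ± 0.13 (SE). It was -0.17 without null 8 and -0.02 without control 8. A probe set assigned to both Orm1 and Orm2 (100437_g_at), which is not counted among the 12, gave 5722 on null 8 and 4908 on null 7, against 5155 on control 8 and 5188 on control 7, with a log2 change of 0.04 ± 0.08 (SE).

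Itih4, a secreted chain of the inter-alpha-trypsin inhibitor family that is known as an acute phase protein, was the single member lower in null liver. Its probe set (98467_at) gave 1040 on null 8 and 1227 on null 7, against 1669 on control 8 and 1717 on control 7. The groups did not overlap, and the null arrays differed by less than either did from the controls. The means were 1133 ± 132 in null liver and 1693 ± 33.7 in control liver (SD, n = 2 each), a log2 change of -0.58 ± 0.10 (SE).

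The scavengers of haemoglobin and haem differed little between arrays. Hp (96092_at), which binds free haemoglobin, gave 8917 on null 8 and 8338 on null 7, against 7543 on control 8 and 7280 on control 7. Its log2 change was 0.22 ± 0.06 (SE) without overlap. Hpx (98116_at), which binds free haem, gave 5577 on null 8 and 5538 on null 7, against 5029 on control 8 and 5119 on control 7. Its log2 change was 0.13 ± 0.06 (SE), and that of a second Hpx probe set (161827_f_at) was 0.14 ± 0.08 (SE), both without overlap. These are differences of 1.16-fold and 1.10-fold.

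Apcs, a pentraxin that is an acute phase protein in mice, gave 1153 on null 8 and 934.6 on null 7, against 1141 on control 8 and 792.5 on control 7 (104072_at). The controls differed by more than the null arrays did. The log2 change was 0.13 ± 0.19 (SE), and it was -0.14 without control 7 and -0.02 without null 8.

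Over the 9 genes, by their brightest probe set, 8 log2 changes were positive and 1 negative. Their median was 0.21, against -0.01 over the 5510 tested genes. In limma 0 of the 9 passed an adjusted p of 0.05, where 0.387% of the tested probe sets did. An unadjusted p under 0.05 was reached by 4 of the 9 and by 914 of the 7241 tested probe sets. The groups did not overlap for 5 genes, 4 higher and 1 lower in null liver, while 43.8% of the tested probe sets had groups that did not overlap. These genes were chosen with this contrast in view, and nothing is read from these shares. The median change was 0.13 without null 8 and 0.27 without null 7.

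Between the null arrays, 7 of the 9 genes were higher on null 8 and 2 (Saa3 and Itih4) lower, where 52.9% of all tested probe sets were higher on null 8. Lcn2 (5.18-fold), Saa2 (2.65-fold) and Orm2 (2.12-fold) exceeded 2-fold, and 0 genes were more than 2-fold lower. Among all tested probe sets 3.44% were more than 2-fold higher on null 8 and 2.6% more than 2-fold lower. Of the 7241 probe sets, 8 had a larger ratio of null 8 to null 7 than Lcn2, 112 a larger one than Saa2 and 199 a larger one than Orm2. The other 6 genes ranged from 0.827-fold for Saa3 to 1.30-fold for Orm1. The second Lcn2 probe set was 2.46-fold higher on null 8, and the second Saa2 probe set 1.40-fold, close to Orm1. A split between the null arrays therefore describes Lcn2, Orm2 and 1 of the 2 Saa2 probe sets, the one that can bind related amyloids, and not the group of 9. The members were chosen with this ratio in view, so nothing is read from these shares and ranks.

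The ratio between the control arrays was not itself part of that choice, but both control arrays entered the null against control contrast that was. Of the 9 genes 0 differed more than 2-fold between the controls, where 4.88% of the tested probe sets did, and 3 were higher on control 8 and 6 on control 7. With 9 genes and a share of 4.88%, a count of 0 says nothing about the members. Lcn2, Saa2 and Orm2 stood at 0.797-fold, 0.780-fold and 0.726-fold on control 8 relative to control 7, the opposite side to their null ratios, by their brightest probe sets. The second probe sets lay on the same side as their null ratios, at 1.41-fold for Lcn2 and 1.01-fold for Saa2. The largest control ratio was that of Apcs, at 1.44-fold. Over all tested probe sets the SD of the log2 difference was 0.55 for the null pair and 0.47 for the control pair. With 1 array on each side these ratios have no replicate check.

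**Figure D2:**
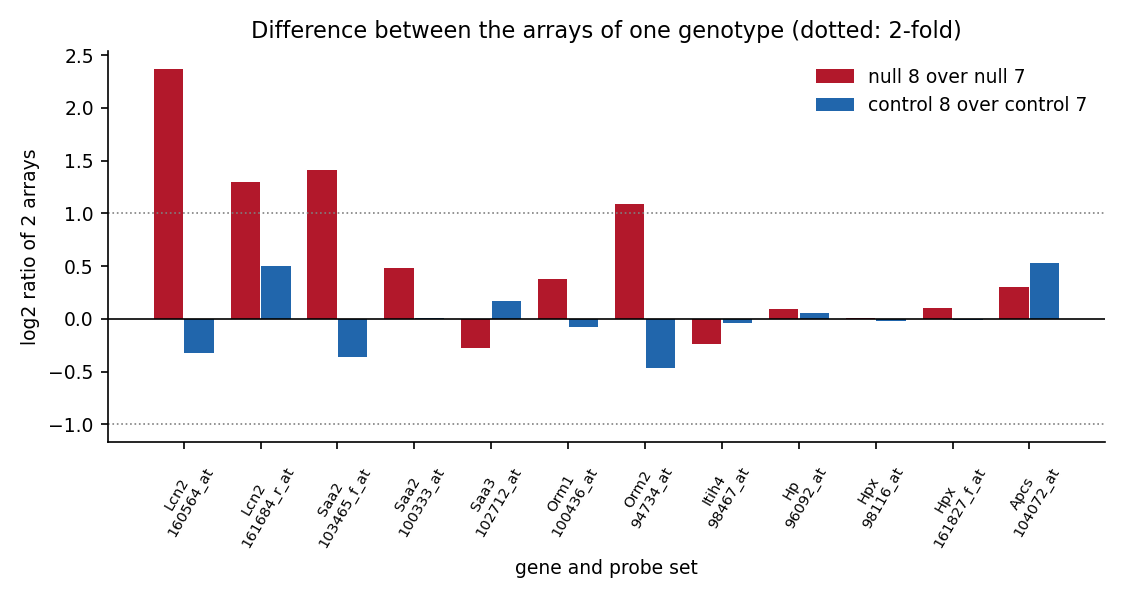
Log2 ratio of the 2 arrays of a genotype for each of the 12 probe sets (red bars, null 8 over null 7, and blue bars, control 8 over control 7, with dotted lines at 2-fold). The red bars of both Lcn2 probe sets (2.37 and 1.30), of Saa2 103465_f_at (1.41) and of Orm2 (1.09) pass the upper line, and no blue bar passes either line.

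Other acute phase genes, which were not members, were read from a list that mixes positive acute phase proteins with negative ones such as albumin (Alb) and transthyretin and with the receptors Lifr and Il1r1. Its counts and median therefore pool genes that the response is known to move in opposite directions. Of 31 tested genes of this kind 2 rose, the zinc-binding metallothioneins Mt2 and Mt1, 0 fell and 29 did not pass in limma, and at an unadjusted p under 0.05 there were 4 higher and 11 lower. The unadjusted threshold was passed by 914 of the 7241 tested probe sets. The median log2 change of the 31 genes was -0.06. The groups did not overlap for 22 of the 31, with 6 higher and 16 lower in null liver, against 43.8% of all tested probe sets. Mt2 rose by 2.89 ± 0.19 (log2, SE, adjusted p = 0.00437 in limma), with 849.6 on null 8 and 739.1 on null 7 against 126.6 on control 8 and 90.7 on control 7. Mt1 rose by 2.38 ± 0.24 (log2, SE, adjusted p = 0.021). Both metallothioneins were alike on the 2 null arrays, with ratios of null 8 to null 7 of 1.15 for Mt2 and 1.003 for Mt1. The call of Mt2 ended without null 8 (adjusted p = 0.0518 in limma), and that of Mt1 without null 7 (0.0966) or null 8 (0.158). Both calls also ended with the floor at the 50th percentile, without the filter on dim probe sets and without the intensity trend (adjusted p from 0.205 to 0.325).

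The relatives of the members went several ways. Orm3, the third mouse orosomucoid gene, gave 105.9 on null 8 and 35.9 on null 7, against 27.7 on control 8 and 27.6 on control 7. It had the pattern of Orm2, with null 8 2.95-fold above null 7, and a log2 change of 1.16 ± 0.49 (SE, adjusted p = 0.395 in limma). It was the single one of the 31 genes that differed more than 2-fold between the null arrays. Saa4, the serum amyloid that is made constitutively, gave 140.2 on null 8 and 114.3 on null 7, against 187.2 on control 8 and 213.1 on control 7. Its log2 change was -0.66 ± 0.17 (SE, adjusted p = 0.188 in limma), on the other side of 0 from Saa2.

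The inter-alpha-trypsin inhibitor heavy chains lay on the side of Itih4, as did the 9 hepatocyte markers that were lower without overlap, and the part of hepatocyte content in these values was not tested. Log2 changes were -0.47 ± 0.14 for Itih1, -0.35 ± 0.08 for Itih2 and -0.32 ± 0.10 for Itih3 (SE), and 0 of the 3 passed in limma. Their groups did not overlap, with signals of 2255 on null 8 and 2213 on null 7, against 3001 on control 8 and 2686 on control 7, for Itih2. Of the plasma proteins with the smallest p after the metallothioneins, Mug1, a broad protease inhibitor of the macroglobulin family, was at -0.53 ± 0.09 (SE, adjusted p = 0.0853 in limma). Transthyretin (Ttr), a thyroid hormone carrier, was at -0.63 ± 0.14 and Fgg, a fibrinogen chain, at -0.33 ± 0.07 (log2, SE, adjusted p = 0.136 for each in limma). Il1r1, the signalling receptor of interleukin 1, had 36.4 on null 8 and 33.2 on null 7 against 92.7 on control 8 and 78.5 on control 7, a log2 change of -1.30 ± 0.22 (SE, adjusted p = 0.0763 in limma).

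**Figure D3:**
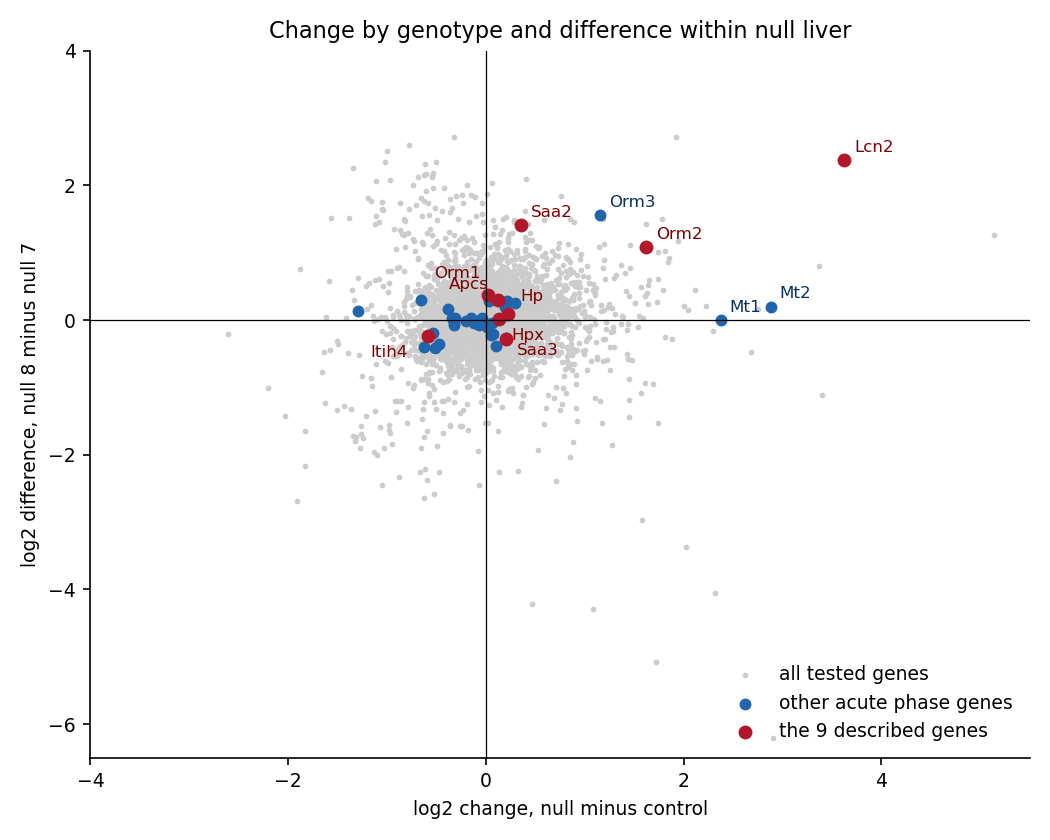
Log2 change of null minus control (x axis) against log2 difference of null 8 minus null 7 (y axis) for the 5510 tested genes (grey), 31 other acute phase genes (blue) and the 9 described genes (red). Lcn2 lies at 3.62 and 2.37, Orm2 at 1.62 and 1.09 and Orm3 at 1.16 and 1.56, while Mt1 and Mt2 lie to the right near 0 on the y axis.

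Genes of the pathways that drive the acute phase response were read from lists. Of 16 tested genes of interleukin 6 and STAT3 signalling 0 passed in limma (1 higher and 3 lower at an unadjusted p under 0.05), and the median log2 change was -0.11. Stat3 itself was at -0.12 ± 0.14 on its brightest probe set. Pim1, a kinase gene that STAT3 induces, was at -0.44 ± 0.13, and Socs3, the feedback inhibitor of the pathway, at -0.48 ± 0.30 (log2, SE), with other probe sets at -1.32 for Pim1 and -1.60 for Socs3. Socs3 had 27.0 on null 8 and 34.2 on null 7, against 36.6 on control 8 and 49.0 on control 7. Of these 16 genes 4 were higher on null 8 than on null 7 and 12 lower, and 0 differed more than 2-fold. Over all tested probe sets 52.9% were higher on null 8.

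The receptor Lifr was at -0.52 ± 0.15 on its brightest probe set and at 0.29 and -0.57 on others. Bcl3, an NF-kB cofactor, was at 0.46 ± 0.14, Cish, a cytokine signalling inhibitor, at -0.58 ± 0.23 and Gadd45g at -0.91 ± 0.52 (log2, SE). Gadd45g rested on control 7, at 124.8 against 37.0 on control 8.

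Of 18 tested genes of interleukin 1, tumour necrosis factor and NF-kB signalling 0 passed in limma (5 higher and 1 lower at an unadjusted p under 0.05). Of these 18 genes 16 had a positive change and 2 a negative one, with a median of 0.37, against -0.01 over all tested genes. Groups did not overlap for 12 of the 18, 10 higher and 2 lower in null liver, against 43.8% of all tested probe sets. The filter took the mean of all 4 arrays, so genes dim in control liver could enter through their null signals. Nothing is read from these counts or from this median. Ccl2, a chemokine that draws monocytes, had 47.1 on null 8 and 40.8 on null 7, against 12.3 on control 8 and 4.4, below the floor, on control 7. Its log2 change was 2.23 ± 0.47 (SE, adjusted p = 0.126 in limma). Cd14, the endotoxin co-receptor, was at 0.87 ± 0.19 and the adhesion molecule Icam1 at 0.69 ± 0.25 (log2, SE). Nfkbie, an inhibitor of NF-kB, was at 1.57 ± 0.49 (log2, SE), with 13.6 on control 8 and 9.0 on control 7. Il1rn, the antagonist of the interleukin 1 receptor, was at 1.61 ± 0.56 (log2, SE). Its controls were 4.0, below the floor, on control 8 and 15.7 on control 7. Ccl2, Nfkbie and Il1rn thus passed the filter at 16.8 only through their null signals, and their folds rest on dim controls. The 1 lower gene was Il1r1, described above. Between the null arrays 14 of the 18 genes were higher on null 8, against 52.9% of all tested probe sets, and 0 by more than 2-fold.

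Among 15 tested transcription factors of acute phase genes 1 rose, 0 fell and 14 did not pass in limma. Jun, part of the AP-1 factor, rose by 2.01 ± 0.23 (log2, SE, adjusted p = 0.0296 in limma), with 97.8 on null 8 and 84.4 on null 7 against 23.5 on control 8 and 21.8 on control 7. Its call ended without any single array (adjusted p from 0.0824 to 0.217 in limma), and with the floor at the 50th percentile, without the filter and without the trend (0.203 to 0.228). Cebpa, the C/EBP factor of resting liver, was at -0.32 ± 0.07, and Cebpd, an inducible one, at 0.77 ± 0.23 (log2, SE). Cebpd gave 87.4 on null 8 and 113.8 on null 7, against 51.1 on control 8 and 66.6 on control 7, so it was not higher on the null array where Lcn2 was highest. Egr1, an immediate early gene, gave 112.8 on null 8 and 325.6 on null 7, against 69.3 on control 8 and 47.7 on control 7. Foxa1 was at -0.64 ± 0.29 and Onecut1 at -0.35 ± 0.16 (log2, SE).

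Glucocorticoids act together with the cytokines on several acute phase genes. Of 15 tested glucocorticoid response genes 2 rose, again Mt1 and Mt2, 0 fell and 13 did not pass in limma, and the median log2 change was 0.07. Groups did not overlap for 10 of these 15 genes (4 higher and 6 lower in null liver), against 43.8% of all tested probe sets. They did not for 11 of the 15 transcription factors (4 higher, 7 lower) and 7 of the 16 interleukin 6 genes (2 higher, 5 lower). Igfbp1, an insulin-like growth factor binding protein, was at 2.30 ± 0.40 (log2, SE, adjusted p = 0.0839 in limma). It gave 469.8 on null 8 and 526.6 on null 7, against 164.5 on control 8 and 62.2 on control 7, so its controls lay far apart. Tdo2, a tryptophan-degrading enzyme, was at -0.38 ± 0.06 (log2, SE, adjusted p = 0.0759 in limma). Of 6 tested receptors and partners of the member proteins 0 passed in limma, with 1 higher and 1 lower at an unadjusted p under 0.05. Hmox1, the haem oxygenase that degrades haem delivered by Hpx, was at 0.56 ± 0.18, the receptor Ager at -1.64 ± 0.39 and Lrp1, the receptor of the Hpx complex, at -0.16 ± 0.11 (log2, SE). Ager gave 12.1 on null 8 and 16.8 on null 7, against 52.7 on control 8 and 37.3 on control 7. Its fold thus rests on dim null values.

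Markers of other cells that make some of these proteins were read beside them. The summed signal of 14 neutrophil markers was 315.3 on null 8 and 231.7 on null 7, against 246.4 on control 8 and 217.9 on control 7. The granule genes Ngp, Ctsg and Mmp8 lay at or below the floor of 7.1 on all 4 arrays. Of the 5 tested neutrophil markers 0 passed in limma (0 at an unadjusted p under 0.05), and Csf3r, the receptor of a granulocyte growth factor, gave 128.0 on null 8 and 79.2 on null 7, against 114.9 on control 8 and 94.8 on control 7. S100a9, a calcium-binding protein of neutrophils that was too dim to test, gave 36.1 on null 8 and 9.0 on null 7, against 3.4 on control 8 and 5.0 on control 7, and so was highest on the array where Lcn2 was highest. The granule protein Camp was at 1.11 ± 0.48 and S100a8 at 0.89 ± 0.43 (log2, SE). Their controls were dim, at 12.3 on control 8 and 11.5 on control 7 for Camp, and at 19.0 and 14.1 for S100a8. Camp passed the filter at 16.8 only through its null signals. Groups did not overlap for 3 of the 5 tested markers, 3 higher and 0 lower in null liver, against 43.8% of all tested probe sets. Unlike S100a9, Camp was lower on null 8 (22.9) than on null 7 (28.8), as was the marker Ly6g (25.9 and 31.2). Of the 5 tested neutrophil markers 3 were higher on null 8 than on null 7 and 2 lower. The part of neutrophils in the Lcn2 signal was not tested.

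The summed signal of 17 macrophage markers was 3562 on null 8 and 3243 on null 7, against 2538 on control 8 and 2567 on control 7, so both null arrays lay above both controls. Of 16 tested macrophage markers 2 rose in limma, Mpeg1, a pore-forming protein, by 1.38 ± 0.14 (log2, SE, adjusted p = 0.021) and Mmp12, the macrophage elastase, which was at least 10.3-fold higher (adjusted p = 0.0377, with both controls below the floor). Both calls ended without any single array, with adjusted p from 0.07 to 0.118 for Mpeg1 and from 0.0819 to 0.266 for Mmp12 in limma. That of Mmp12 also ended with a floor at the 10th percentile (adjusted p = 0.0682), and both ended with the floor at the 50th percentile, without the filter and without the trend (0.158 to 0.305). A second Mmp12 probe set was at 2.58 on the log2 scale against controls at the floor. Lyz2, the macrophage lysozyme, was at 1.10 ± 0.21 (log2, SE). The brightest markers moved less, with C1qc at 0.28 ± 0.11, C1qa at 0.26 ± 0.11, C1qb at 0.27 ± 0.13 and Clec4f at -0.01 ± 0.11 (log2, SE). Another C1qb probe set was at -0.25. Of the 16 markers 14 had a positive change and 2 a negative one, with a median of 0.29. Groups did not overlap for 13 of the 16, 12 higher and 1 lower in null liver, against 43.8% of all tested probe sets. Mmp12 passed the filter on dim probe sets only through its null signals. Saa3, the amyloid that macrophages make, had overlapping groups beside these markers. The 7 measured adipocyte markers summed to 153.5 on null 8 and 150.2 on null 7, against 117.9 on control 8 and 119.2 on control 7, and the fat cell hormone Retn was at or below the floor on every array. The 4 measured bile duct markers summed to 50.7 on null 8 and 45.1 on null 7, against 42.0 on control 8 and 24.8 on control 7, and 0 of them were bright enough to test.

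Among the acinar markers Ctrb1, a digestive protease, gave 78.7 on null 8 and 1307 on null 7, against 71.8 on control 8 and 58.0 on control 7. Reg1, a secreted lectin of the pancreas, was high on both null arrays, at 65.4 on null 8 and 142.0 on null 7, against 11.8 on control 8 and 5.7, below the floor, on control 7. Lcn2, Saa2 and Orm2 were lower on null 7, which held this signal, and the part of admixed tissue in those differences was not tested.

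**Figure D4:**
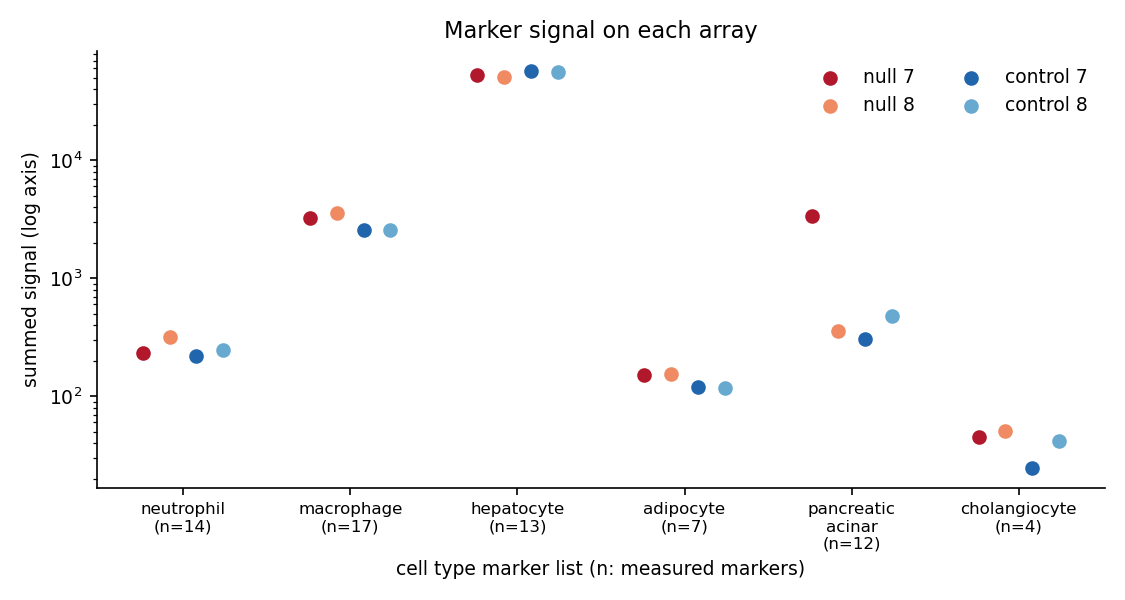
Summed signal (log axis) of the measured markers of each of 6 cell types on the 2 null and 2 control arrays, a point per array. The acinar sum is 3357 on null 7 and between 308.3 and 474.1 on the other arrays, and the macrophage sums are 3243 and 3562 on the null arrays against 2567 and 2538 on the controls.

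Genes with the most similar pattern were ranked by the root mean square distance between log2 signals over the 4 arrays, each taken relative to the mean of the controls. Nearest to Lcn2 were 2 probe sets of Mmp12 (distances 0.60 and 0.95), Gstm3 (0.75), Mt2 (0.97) and Ubd (0.998). These distances are wide, since Lcn2 differed more between the null arrays than each of them did. Mmp12 (95339_r_at) gave 96.9 on null 8 and 55.7 on null 7. Nearest to Saa2 were Ptpre (0.12), Cd79b (0.12), Cldn1 (0.14), Ccl6 (0.15) and Anapc4 (0.16), all with signals under 100 on every array. Nearest to Orm1 were Grina, Txndc9, Pno1, Lmo7 and Mpp1 (all within 0.02). Nearest to Itih4 were Lifr (0.02, on probe set 104659_g_at), Hnrnpdl (0.03), Nfyb (0.03), S100a13 (0.04) and Alas2 (0.05). With 4 arrays such likeness is a description, and small changes such as that of Orm1 are matched by many genes.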

How the data were processed

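Liver RNA was measured on 4 MG_U74Av2 arrays. The authors deposited one linear intensity for every probe set. Per the labels it came from GCOS software, which reads perfect match against mismatch probes, followed by a scaling of the whole chip. Neither the software's version nor its target is given in the sources used here. No further normalisation was applied. Signals below 7.1, the 25th percentile, were raised to that value before log2 was taken. The fit kept probe sets whose mean exceeded log2 of 16.8, the 40th percentile, 7241 of the 12422 left after 66 manufacturer controls. This mean was taken over all 4 arrays, so a probe set dim in a genotype could pass through the arrays of the other. Genotype was the only term in limma 3.58.1 (R 4.3.3), in a two-sided test with lmFit and a trended eBayes, on 2 residual and 4.78 prior degrees of freedom, with Benjamini-Hochberg adjustment over all tested probe sets. An exact permutation test of 2 against 2 arrays cannot go below 0.333 and was not used. The number of arrays limits the precision.

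Names came from the platform annotation, with 10833 probe sets carrying 1 symbol (10817 matched by gene identifier to the GRCm38.p6 table), 396 several and 1193 unnamed here. A gene was represented by its brightest tested probe set, and marker sums used the brightest measured one. The members, lists and alternatives were chosen with earlier results of these data known. Named genes were all member probe sets, list genes past the threshold, up to 6 per list of smallest p, marker genes of highest signal or largest change, and the 5 probe sets nearest in pattern. Genes named outside this rule are Stat3, Orm3, Saa4, Itih1, Itih2, Itih3, S100a9 and the genes of the other observations, chosen after their values were seen. Same-numbered arrays did not deviate together (correlation of deviations -0.03 over probe sets). The steps were tested on simulated data.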

Additional observations from a re-analysis of the deposited data

How the results depend on the processing

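Over all probe sets 22 were higher and 6 lower in null liver. With a floor at the 50th percentile, without the filter on dim probe sets or without an intensity trend there were 0 higher and 0 lower, and the 3 higher genes of the 6 lists of acute phase genes and regulators (Mt1, Mt2 and Jun) became 0. Quantile normalization gave 12 lower probe sets, and 1 list gene was lower, against 0. With the replicate number as a block there were 37 higher and 15 lower probe sets and 1 of the 9 member genes (Lcn2) passed, against 0. The numbers are not shown to pair the arrays. Leaving out each array in turn left 10 to 13 probe sets higher, 0 to 4 lower, 0 to 1 member genes (Lcn2, without null 7), 0 to 3 higher list genes and a median member change of 0.13 to 0.27. A null arm of 1 array takes its spread from the controls, and Lcn2 was chosen on this contrast, so its passing supports nothing. The null minus control change of a member turned sign in 5 of 93 combinations of a member and an alternative, for Saa2 (-0.35), Orm1 and Apcs without null 8, Orm1 without control 8 and Apcs without control 7. The filter, the trend and the block cannot move these changes. The floor at the 10th percentile moved none of them and that at the 50th percentile only that of Lcn2. Many of the 93 combinations could therefore not turn a sign, and the share of 5 in 93 is no measure of stability. The second Lcn2 probe set gave 0.69. After quantile normalization null 8 minus null 7 became 0.00 for Hp and -0.07 for Hpx. Dim signals, among them the Lcn2 controls, limit every fold against them.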

Other observations

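Fos, an immediate early gene, gave 7.7 on null 8 and 260.7 on null 7, against 19.7 on control 8 and 9.4 on control 7, and so stood high on the null array where Lcn2, Saa2 and Orm2 were the lower. Hnf4a, a hepatocyte transcription factor, gave 194.6 on null 8 and 77.0 on null 7, against 116.3 on control 8 and 103.2 on control 7. Tumour necrosis factor (Tnf), too dim to test, gave 22.3 on null 8 and 8.7 on null 7, against 5.0 on control 8 and 3.9 on control 7. The interleukin 1 genes did not share the direction of Tnf. Il1b, also too dim to test, gave 12.1 on null 8 and 29.2 on null 7. Its null 7 signal lay above both controls and its null 8 signal between them. Il1a gave 39.4 on null 8 and 39.7 on null 7, against 31.3 on control 8 and 25.9 on control 7. Interleukin 6 (Il6) lay under 9 on every array.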
